A study of Mus musculus with 12 samples.

Results

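The genes described here code for 10 acute phase proteins of mouse liver: the serum amyloid A genes Saa1, Saa2, Saa3 and Saa4, the pentraxin gene Apcs, the alpha-1 acid glycoprotein genes Orm1, Orm2 and Orm3, the lipocalin gene Lcn2 and the haptoglobin gene Hp. They were taken by gene name, and all 10 were found among the 54532 genes of each count table. The study asked what peroxisome proliferator-activated receptor gamma (PPARγ) in hepatocytes contributes to fatty liver disease under a fast-food diet (FFD), and RNA was sequenced from whole liver in 12 libraries, 3 in each of 4 groups. All mice were males that carried PPARγ flox/flox alleles, were injected with a virus at 8 weeks of age, and were then fed FFD, which is rich in fat, cholesterol and sucrose and was given with fructose and glucose in the drinking water. Mice of the PPARγ-KO groups received AAV8-TBG-Cre, in which the thyroxine-binding globulin promoter drives Cre recombinase in hepatocytes. Control littermates, labelled WT, received AAV8-TBG-eGFP, so that they too carried floxed alleles and a viral vector. Livers were taken after 2 or 5 months of diet, and no group without the diet was analysed here. Replicates are numbered 1 to 3 in the labels, which do not say how the livers were collected or pooled, and p-values measure the spread between these libraries.

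Acute phase proteins are plasma proteins that hepatocytes secrete in larger amounts when the liver senses inflammation. Macrophages release IL-1 and IL-6, IL-6 acts on hepatocytes through its receptor, gp130 and STAT3, and IL-1 acts through NF-κB, while C/EBP factors bind many of the promoters. In fatty liver disease the same program runs at a low, lasting level. Serum amyloid A travels on high-density lipoprotein, Apcs (serum amyloid P component) is the main acute phase pentraxin of the mouse, alpha-1 acid glycoproteins carry lipophilic ligands in plasma, lipocalin 2 binds bacterial siderophores, and haptoglobin captures free hemoglobin.

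Expression is given as normalized CPM, counts per 1000000 of the library size after TMM scaling. Libraries held 16367775 to 27452284 counts, and 28715 genes had a count in at least 1 library. Pparg itself was not lower in the libraries labelled PPARγ-KO. It had 37.6 to 41.4 normalized CPM in WT and 50.4 to 66.5 in PPARγ-KO at 2 months, and 36.9 to 41.4 against 75.0 to 92.9 at 5 months, a log2 fold change of 0.52 (SE 0.107, adjusted p = 0.0309) and of 1.15 (SE 0.0847, adjusted p = 2.57e-06) in edgeR's quasi-likelihood test. The 2-month call was lost without any 1 of the 2-month libraries other than WT replicate 1 (0.0574 to 0.117) and with library size alone (0.0729). The counts are per gene and do not separate floxed exons from the rest, so PPARγ-KO below means the libraries labelled so. Cidec and Plin2 are given as examples of known PPARγ target genes, and no list of such targets was surveyed. Plin2 was named after its values were seen. Cidec had 99.8 to 177 normalized CPM in WT and 7.52 to 13.4 in PPARγ-KO at 2 months (log2 -3.85, SE 0.341, adjusted p = 0.0117, and 0.0854 with the replicate number as a block and 0.0644 without PPARγ-KO replicate 3). At 5 months it had 141 to 148 against 17.2 to 26.5 (log2 -2.70, SE 0.129, adjusted p = 2.91e-06). Plin2 was lower too, by log2 -0.73 at 2 months (SE 0.113, adjusted p = 0.0110, and 0.0521 without WT replicate 3) and -0.75 at 5 months (SE 0.0678, adjusted p = 1.25e-05). Hepatocyte markers summed to between 58593 and 86893 normalized CPM in every library, led by Alb. WT replicate 1 at 2 months stood apart: 519 genes differed between genotypes at 2 months with all libraries, 1577 without this one and 117 to 238 without any other. At 5 months 2602 genes differed, 3078 without WT replicate 1 and 1593 to 2246 without any other library. That library had the fewest genes with a count (20072 against 20741 to 21966 in the others) and was the lowest of its group for Saa1, Saa2, Apcs, Orm2, Lcn2 and Hp. Scaling by library size alone turned the split of genes called higher and lower from 259 and 260 to 171 and 349 at 2 months, and from 1258 and 1344 to 889 and 1894 at 5 months. Whether libraries of both times were prepared together is not given in the sources used here, so time on the diet and any batch between the times cannot be told apart. In whole liver, fewer cells of a type and less RNA per cell cannot be told apart either.

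The 4 serum amyloid A genes lie together on chromosome 7 in the mm10 build: Saa3 at chr7:46711998-46715700, Saa4 at chr7:46727998-46732603 and Saa1 at chr7:46740497-46742980 on the minus strand, and Saa2 at chr7:46751790-46754313 on the plus strand. The Orm genes lie side by side on the plus strand of chromosome 4, Orm1 at chr4:63344560-63348163, Orm3 at chr4:63356162-63359511 and Orm2 at chr4:63362449-63365878. Saa1 and Saa2 mRNAs were identical at 93.9% of aligned bases, with an identical run of up to 99 bases, and Orm1 and Orm2 mRNAs at 91.0%, with a run of up to 141 bases. Counts of these paralogs are therefore uncertain, because how the counting placed reads that fit several copies is not given in the sources used here. Saa3 stood further off, at 62.2% identity to Saa1.

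The promoters below are shown because the SAA genes share a cluster but not a course over the study, and because Orm2 and Orm3 are a similar neighbouring pair. Each is the stretch of 200 bases before the RefSeq start in build GRCm38.p6, read on the gene's own strand, and capitals mark a match to the C/EBP motif TTGCNNAA on either strand. A RefSeq promoter was matched for 8 of the 10 genes. Saa1 is at chr7:46742981-46743180, Saa2 at chr7:46751633-46751832, Saa3 at chr7:46715677-46715876, Saa4 at chr7:46732604-46732803, Orm2 at chr4:63362249-63362448 and Orm3 at chr4:63355958-63356157.
Saa1: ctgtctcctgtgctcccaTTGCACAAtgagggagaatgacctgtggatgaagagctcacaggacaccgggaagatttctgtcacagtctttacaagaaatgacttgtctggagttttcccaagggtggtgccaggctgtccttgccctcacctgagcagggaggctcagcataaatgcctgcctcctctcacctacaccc
Saa2: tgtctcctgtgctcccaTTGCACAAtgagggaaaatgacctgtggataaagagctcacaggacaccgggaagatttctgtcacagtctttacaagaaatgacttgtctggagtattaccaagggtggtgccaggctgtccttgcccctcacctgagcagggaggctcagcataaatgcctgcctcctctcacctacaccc
Saa3: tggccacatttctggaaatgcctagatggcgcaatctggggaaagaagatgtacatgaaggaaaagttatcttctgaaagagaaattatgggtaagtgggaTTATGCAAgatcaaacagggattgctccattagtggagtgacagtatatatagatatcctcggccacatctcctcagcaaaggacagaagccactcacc
Saa4: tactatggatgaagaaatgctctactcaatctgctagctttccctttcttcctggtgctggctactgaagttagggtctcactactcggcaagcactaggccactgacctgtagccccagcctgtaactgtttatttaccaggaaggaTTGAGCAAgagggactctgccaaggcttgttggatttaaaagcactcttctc
Orm2: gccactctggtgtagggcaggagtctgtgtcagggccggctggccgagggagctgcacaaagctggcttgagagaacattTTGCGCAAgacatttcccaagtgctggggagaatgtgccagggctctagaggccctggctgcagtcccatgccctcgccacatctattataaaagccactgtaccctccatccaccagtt
Orm3: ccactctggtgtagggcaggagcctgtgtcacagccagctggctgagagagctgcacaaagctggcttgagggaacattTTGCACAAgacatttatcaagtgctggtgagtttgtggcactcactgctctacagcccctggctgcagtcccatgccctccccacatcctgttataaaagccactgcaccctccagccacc

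A C/EBP match stood in 6 of the 8 promoters, those printed, and in 7.47% of 32851 RefSeq promoters of the same length. The Saa1 and Saa2 promoters were identical at 97.0% of aligned bases and those of Orm2 and Orm3 at 84.4%, so their matches are not separate observations. The match lay 182 bases before the start in Saa1, 183 in Saa2, 99 in Saa3, 52 in Saa4, 120 in Orm2 and 121 in Orm3. The Apcs promoter held no C/EBP match and held 2 matches to the IL-6 response element CTGGGAA, a motif in 7.26% of promoters. The STAT motif TTCNNNGAA (5.49% of promoters), the NF-κB consensus (3.18%) and the DR1 motif of PPAR and RXR pairs (0.0335%) were in none of the 8 windows, and Lcn2 held no match to any of the 5 motifs. These matches describe letters in a window and not binding.

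At 5 months, 9 of the 10 acute phase genes were lower in PPARγ-KO than in WT livers: Saa1, Saa2, Saa3, Apcs, Orm1, Orm2, Orm3, Lcn2 and Hp. The falls ran from 1.42-fold in Orm1 to 3.30-fold in Orm2, and the 3 PPARγ-KO libraries lay below the 3 WT libraries for each of the 9. The list was drawn up with earlier results of these data known, so its share of calls is a description. Among the 14138 genes tested at this time, 9.51% were called lower, 8.90% higher and 18.4% in either direction (edgeR quasi-likelihood test, Benjamini-Hochberg adjusted p under 0.05). Groups did not overlap for 34.8% of them, and for 19.0% with PPARγ-KO lower. The median log2 fold change was -1.17 over the 10 genes and -0.00577 over all genes tested. Saa4 was the exception, with a log2 fold change of 0.28 (SE 0.154, adjusted p = 0.278). Leaving out 1 library at a time left 5 to 9 genes called lower, with 5 without PPARγ-KO replicate 1. Without any filter on low counts 6 were called lower and Saa4 higher (adjusted p = 0.00570).

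**Figure D1:**
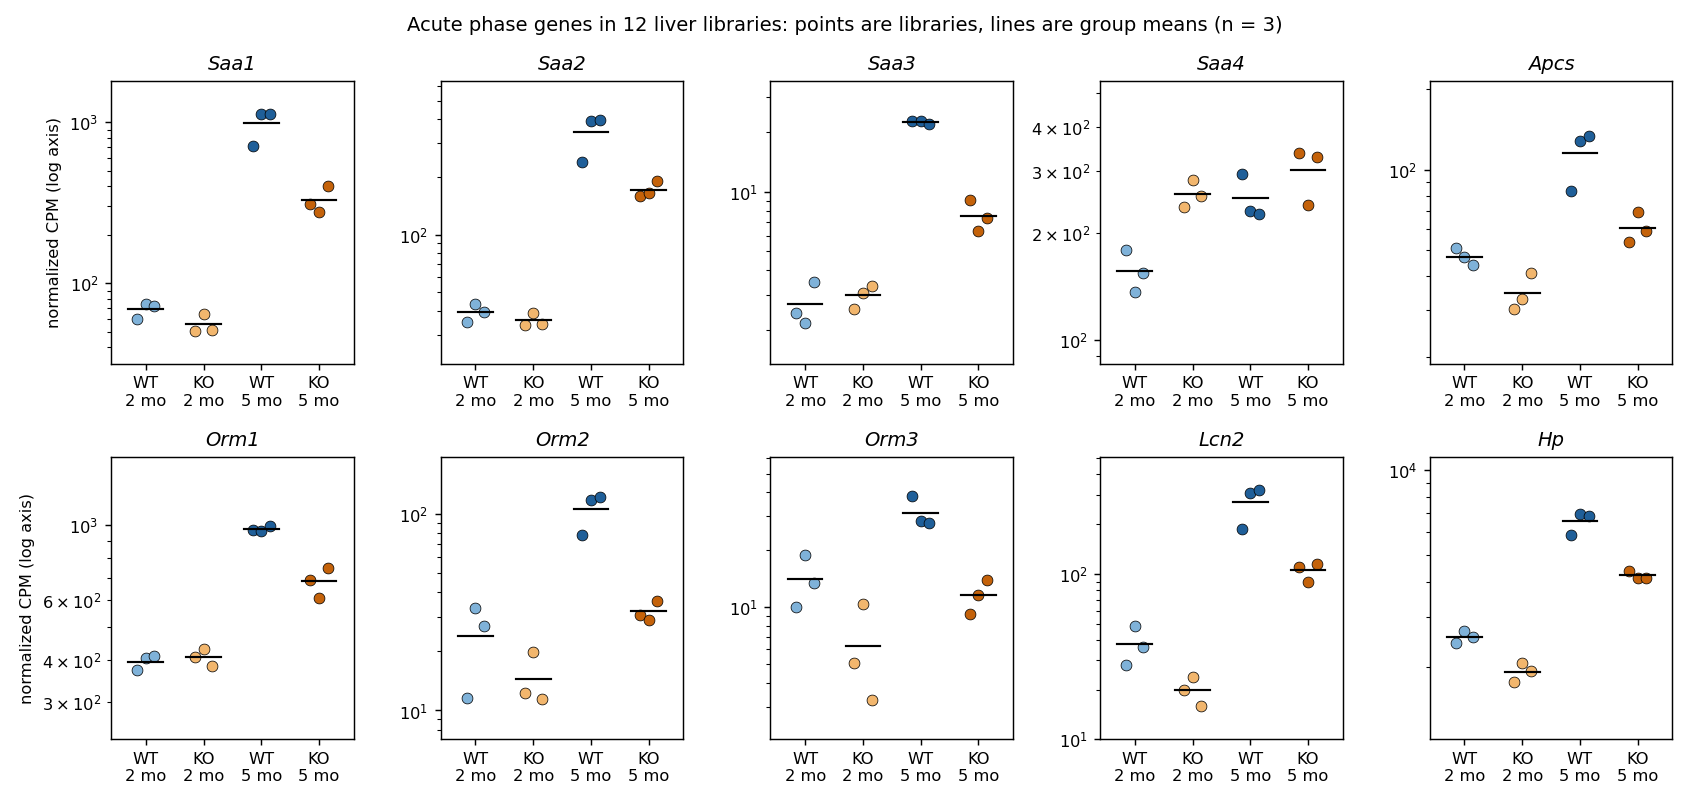
Normalized CPM (log axis, a separate range in each panel) of the 10 acute phase genes in the 4 groups. Points are libraries and lines are group means of 3. At 5 months the PPARγ-KO points of every gene but Saa4 lie below the WT points, while at 2 months this holds for Apcs, Lcn2 and Hp.

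At 2 months the picture was smaller and mixed. Of the 10 genes, Saa4 was higher and Hp lower in PPARγ-KO, against 3.56% of 14573 genes tested that were called in either direction, 1.78% higher and 1.78% lower. The groups did not overlap for Saa4, Apcs, Lcn2 and Hp, and did not overlap for 24.1% of all genes tested. The median over the 10 genes was -0.358 on the log2 scale, against -0.00483 over all genes tested. Same-numbered PPARγ-KO and WT libraries correlated weakly in their deviations at this time (r of 0.14 to 0.323), but the labels give no pairs. With the replicate number as a block Saa4, Lcn2 and Orm3 were called and Hp was not. Leaving out WT replicate 1 gave 4 calls, with Saa1 and Lcn2 added as lower, and Saa4 and Hp both lost theirs without WT replicate 3 (adjusted p = 0.0530 and 0.153). Without WT replicate 2 or PPARγ-KO replicate 1 or 2, Saa4 was the only gene of the 10 called.

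**Figure D2:**
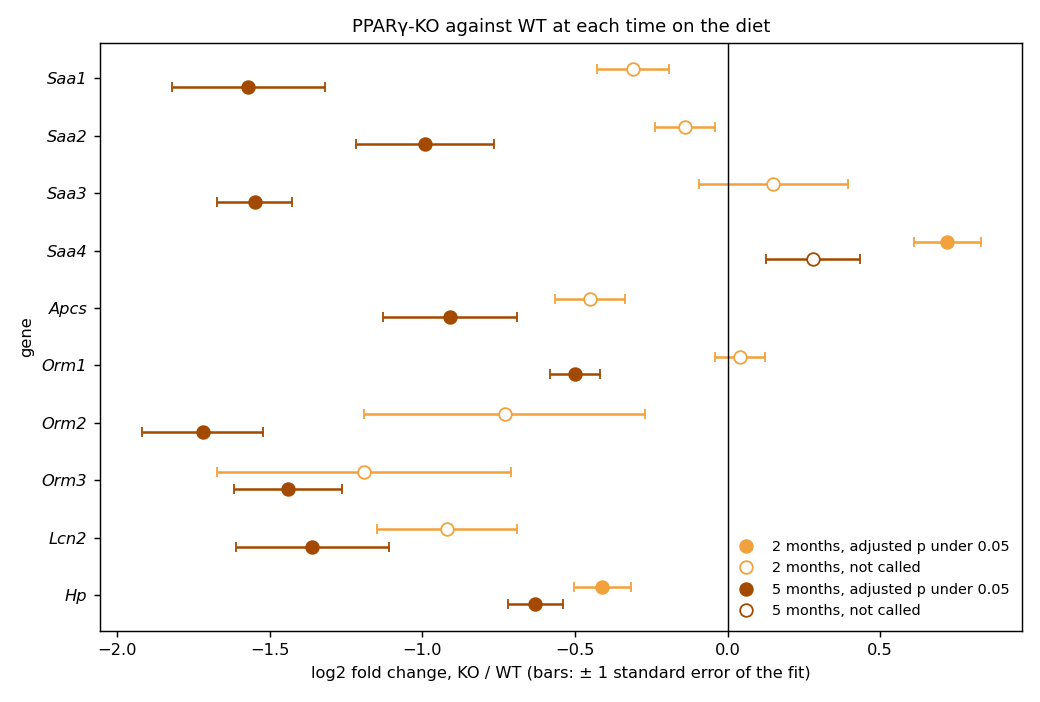
Log2 fold change of PPARγ-KO against WT (x axis) for each acute phase gene (y axis) at 2 and 5 months, with bars of 1 standard error of the fit. Filled points passed an adjusted p of 0.05. At 5 months 9 genes lie between -1.72 and -0.50, while at 2 months the values run from -1.19 in Orm3 to 0.72 in Saa4.

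From 2 to 5 months of diet, all 10 genes rose in WT livers and 8 rose in PPARγ-KO livers, all but Saa4 and Orm3. Over the same interval 46.4% of 14491 genes tested were called in WT, 23.8% higher and 22.7% lower, and 44.9% of 14478 in PPARγ-KO, 22.7% higher and 22.2% lower. The groups did not overlap for 10 of 10 genes in WT and 8 of 10 in PPARγ-KO, against 56.7% and 55.6% of all genes tested. The median rise was 1.75 in WT and 1.14 in PPARγ-KO on the log2 scale, while the median of all genes was -0.0128 and -0.0111. Each comparison over time shares its libraries with the comparisons of genotype.

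**Figure D3:**
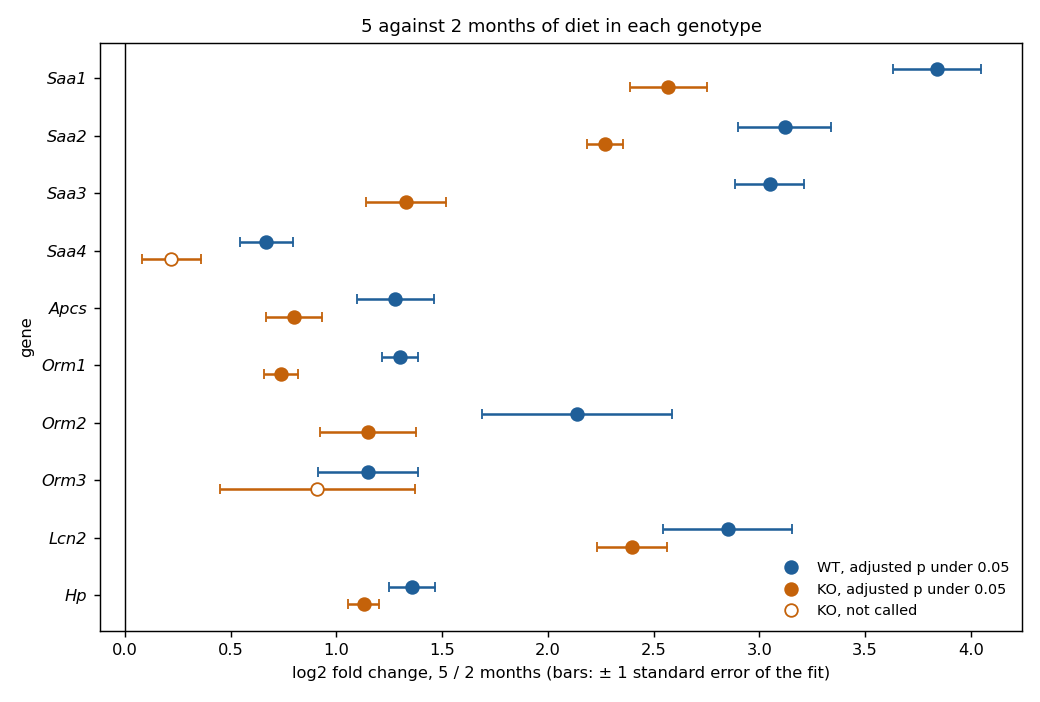
Log2 fold change from 2 to 5 months of diet (x axis) for each acute phase gene (y axis) in WT and in PPARγ-KO livers, with bars of 1 standard error of the fit and filled points for an adjusted p under 0.05. Saa1 has the largest value in both genotypes, 3.84 in WT and 2.57 in PPARγ-KO, and Saa4 the smallest, 0.67 and 0.22.

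The change of the genotype difference between the times was tested in a fit of all 12 libraries, and it equals the difference between the rises in both genotypes. All 10 estimates were below 0, with a median of -0.515 against -0.00445 over all genes tested. They are not 10 separate observations, since the genes share libraries and include paralogs. Of the 10, 2 were called, Saa3 and Orm1, against 1.57% of 15127 genes tested in either direction, 0.912% lower and 0.661% higher. The other 8 genes were not called in this fit. Saa1 came nearest, at -1.27 (SE 0.288, adjusted p = 0.0668), and was called in DESeq2 (5.84e-05), with the replicate number as a block (0.0145), and without WT replicate 1 (0.0120) or PPARγ-KO replicate 3 (0.0441) at 5 months, within a range of 5.84e-05 to 0.157. Saa2, at -0.85 (SE 0.250, adjusted p = 0.136), was called in DESeq2 (0.00949), with the block (0.0260) and without WT replicate 1 at 5 months (0.00309), within a range of 0.00309 to 0.253.

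Saa1 and Saa2 code for the acute phase forms of serum amyloid A that hepatocytes release on high-density lipoprotein. In WT livers Saa1 was at 59.5, 74.4 and 72.3 normalized CPM at 2 months and at 708, 1119.7 and 1128 at 5 months. In PPARγ-KO livers it was at 50.5, 64.7 and 51.5 at 2 months and at 309, 276 and 403 at 5 months. The genotypes overlapped at 2 months and were apart at 5 months, where the lowest WT library, replicate 1, was above every PPARγ-KO library. The rise was 14.3-fold in WT (log2 3.84, SE 0.206, adjusted p = 7.09e-06) and 5.92-fold in PPARγ-KO (log2 2.57, SE 0.183, adjusted p = 1.59e-04). At 5 months Saa1 was 2.97-fold lower in PPARγ-KO (log2 -1.57, SE 0.250, adjusted p = 0.0125, and 0.0558 without PPARγ-KO replicate 1), whereas at 2 months the log2 difference was -0.31 (SE 0.118, adjusted p = 0.198, and 0.0392 without WT replicate 1). Over the alternatives the adjusted p spanned 6.64e-08 to 0.0558 for the later time and 0.0173 to 0.503 for the earlier one.

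Saa2 followed Saa1 at lower levels. It was at 35.1, 43.6 and 39.4 normalized CPM in WT at 2 months and at 239, 391 and 397 at 5 months. The PPARγ-KO libraries had 33.8, 38.9 and 34.2 at 2 months and 159.9, 164 and 191 at 5 months. The 2-month values overlapped, and at 5 months WT replicate 1 was again the lowest of its group and still above PPARγ-KO. Saa2 was 1.98-fold lower in PPARγ-KO at 5 months (log2 -0.99, SE 0.226, adjusted p = 0.0399). This call was lost without any 1 of the 5-month libraries other than WT replicate 1, with adjusted p from 0.0775 to 0.127, and without the filter on low counts (0.113), and over all alternatives the adjusted p ran from 1.40e-06 to 0.127. It rose 8.70-fold in WT (adjusted p = 6.00e-05) and 4.81-fold in PPARγ-KO (adjusted p = 6.67e-08). With the counts of Saa1 and Saa2 summed, the 5-month difference was -1.40 on the log2 scale (SE 0.229, adjusted p = 0.0113) and the 2-month difference -0.25 (SE 0.106, adjusted p = 0.246).

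The balance of both copies moved as well. The ratio of Saa1 to Saa2 counts was 1.70, 1.71 and 1.84 in WT and 1.49, 1.66 and 1.51 in PPARγ-KO at 2 months, and 2.96, 2.86 and 2.84 in WT and 1.93, 1.69 and 2.11 in PPARγ-KO at 5 months. The 3 WT libraries at 5 months lay above the other 9, and the groups differed there by more than their spread (2.89 ± 0.0645 against 1.91 ± 0.211, SD, n = 3). No test of the ratio was made.

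**Figure D4:**
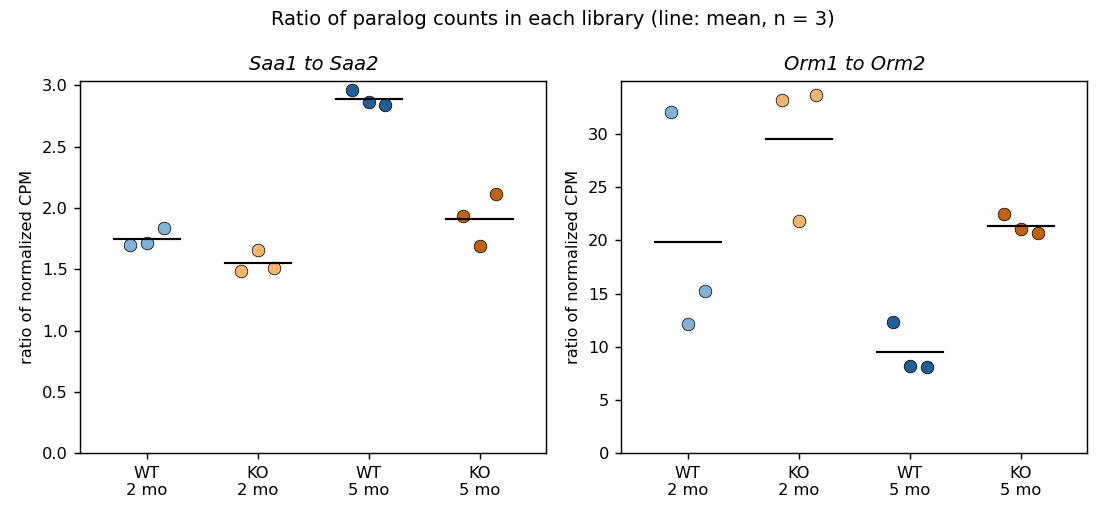
Ratio of normalized CPM between paralogs (y axis, from 0) in each library of the 4 groups, Saa1 to Saa2 on the left and Orm1 to Orm2 on the right, with lines at the group means of 3. WT libraries at 5 months have the highest Saa1 to Saa2 ratios, 2.84 to 2.96, and Orm1 to Orm2 ratios of 8.16 to 12.3 against 20.7 to 22.5 in PPARγ-KO.

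Saa3, the SAA gene that macrophages and adipocytes also express, was the scarcest of the family. It had 2.45, 2.16 and 3.50 normalized CPM in WT and 2.54, 3.08 and 3.35 in PPARγ-KO at 2 months, which overlapped. At 5 months it had 22.7, 22.7 and 22.1 in WT and 9.06, 6.30 and 7.38 in PPARγ-KO, so that the genotypes were far apart and the WT libraries nearly equal. Saa3 was 2.93-fold lower in PPARγ-KO at 5 months (log2 -1.55, SE 0.123, adjusted p = 4.86e-06) and differed by 0.15 at 2 months (SE 0.245, adjusted p = 0.805). It rose 8.27-fold over time in WT (adjusted p = 1.63e-06) and 2.52-fold in PPARγ-KO (adjusted p = 2.10e-04). The change of the genotype difference between the times was -1.71 (SE 0.255, adjusted p = 0.00456) and was called under 18 of 18 alternatives, with adjusted p up to 0.0206.

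Macrophage markers moved in the same direction. Of 16 markers, 14 were lower in PPARγ-KO at 5 months, among them Cd5l (log2 -1.19, adjusted p = 3.25e-06), Csf1r (-0.82, 2.49e-05), the Kupffer cell gene Clec4f (-0.79, 1.40e-04) and Adgre1 (-1.20, 0.0402, and 0.109 to 0.138 without any 1 of WT replicates 2 and 3 and PPARγ-KO replicates 1 and 3). Of all genes tested, 9.51% were called lower at 5 months. The summed level of the 16 was 1549 to 1824 normalized CPM in WT and 746 to 1003 in PPARγ-KO at 5 months, against 581 to 754 and 605 to 696 at 2 months, and none of the 16 was at 0 throughout a group. At 2 months 3 of the 16 were called lower and 1 higher, against 1.78% of all genes in each direction. With 1 library left out, 0 to 4 were called lower and 0 to 2 higher at that time. The genotype difference itself changed between the times for Cd5l (-1.04, 0.0112), Csf1r (-0.92, 0.0112) and Clec4f (-1.10, 9.88e-04). At 5 months, with 1 library left out, 8 to 14 markers were called lower, 8 without WT replicate 2 and 9 without WT replicate 3 or PPARγ-KO replicate 3. Adipocyte markers, of which 3 of 7 passed the filter, summed to 113 to 197 normalized CPM in WT and 23.3 to 29.9 in PPARγ-KO at 2 months, and to 173 to 182 and 42.8 to 61.8 at 5 months. Most of the WT sums was Cidec, the PPARγ target gene given above (99.8 to 177 at 2 months and 141 to 148 at 5 months). At 2 months Cidec was called lower and Adrb3 higher. The Adrb3 call was lost without any 1 of the 2-month libraries other than WT replicate 1 (0.0556 to 0.123). Of the 3 tested at 5 months, Cidec was lower and Fabp4 (log2 -0.11, adjusted p = 0.516) and Adrb3 (-0.84, 0.0841) were not called, while Adipoq had at most 1 count in a library and Lep had 0. The part of macrophages or adipocytes in the Saa3 difference was not tested.

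Saa4 codes for the constitutive form of serum amyloid A, which changes little in an acute phase response. In WT livers it had 179, 137 and 155 normalized CPM at 2 months and 295, 231 and 227 at 5 months. In PPARγ-KO livers it had 237, 283 and 255 at 2 months and 337, 240.2 and 329 at 5 months. Every PPARγ-KO library was above WT at 2 months, and the genotypes overlapped at 5 months. Saa4 was 1.64-fold higher in PPARγ-KO at 2 months (log2 0.72, SE 0.109, adjusted p = 0.0106, and 0.0530 without WT replicate 3), the reverse of Hp at the same time. Over the alternatives that adjusted p ran from 1.83e-14 to 0.0530. At 5 months the difference of 0.28 was called without PPARγ-KO replicate 2 (adjusted p = 0.0211), within a range of 0.00570 to 0.524. It rose 1.59-fold over time in WT (log2 0.67, SE 0.126, adjusted p = 0.00187), while in PPARγ-KO the difference was 0.22 (SE 0.139, adjusted p = 0.232, and 0.00573 without PPARγ-KO replicate 2 at 5 months). The ratio of Saa1 to Saa4 counts was 0.332, 0.544 and 0.465 in WT and 0.214, 0.228 and 0.202 in PPARγ-KO at 2 months. At 5 months it was 2.40, 4.85 and 4.98 in WT and 0.917, 1.15 and 1.22 in PPARγ-KO, so that WT lay above PPARγ-KO at each time.

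Apcs, on chromosome 1 at chr1:172893961-172895041, codes for serum amyloid P component, which binds amyloid fibrils and microbial surfaces. WT livers had 51.1, 47.1 and 44.1 normalized CPM at 2 months and 83.2, 128 and 134 at 5 months. PPARγ-KO livers had 30.2, 33.0 and 41.0 at 2 months and 53.8, 69.5 and 59.0 at 5 months. PPARγ-KO was below WT at both times with no overlap. The difference was called at 5 months (1.88-fold lower, log2 -0.91, SE 0.219, adjusted p = 0.0458) and not at 2 months (log2 -0.45, SE 0.114, adjusted p = 0.0662). Neither stood clear of the threshold. The 5-month call was lost without any 1 of the 5-month libraries other than WT replicate 1 (adjusted p from 0.0683 to 0.142). It was also lost without the filter on low counts (0.120). The 2-month difference was called without PPARγ-KO replicate 3 (0.0272), in DESeq2 (0.0311), with library size alone (0.0293) and without the filter (1.46e-04). Over all alternatives the adjusted p spanned 1.18e-08 to 0.142 for the later time and 1.46e-04 to 0.209 for the earlier one. Apcs rose 2.43-fold in WT (adjusted p = 0.00134) and 1.74-fold in PPARγ-KO (adjusted p = 0.00181).

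Crp, the other classical pentraxin, is a minor acute phase protein in mice. It was higher in PPARγ-KO at 2 months (log2 0.47, SE 0.0887, adjusted p = 0.0223), a call lost without any 1 of the 2-month libraries other than WT replicate 1 (0.0688 to 0.0981). At 5 months it had 409.6 to 499 normalized CPM in WT and 443 to 476 in PPARγ-KO, which overlapped (log2 0.06, SE 0.0791, adjusted p = 0.691).

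Orm1, Orm2 and Orm3 code for alpha-1 acid glycoproteins, also called orosomucoids. Orm1 had 373, 405 and 409.6 normalized CPM in WT and 407, 431 and 384 in PPARγ-KO at 2 months. At 5 months it had 965, 962 and 995 in WT and 690.2, 611 and 749 in PPARγ-KO. The 2-month values were interleaved, and at 5 months the genotypes were apart. Orm1 was 1.42-fold lower in PPARγ-KO at 5 months (log2 -0.50, SE 0.0816, adjusted p = 9.64e-04), called under 13 of 13 alternatives, and differed by 0.04 at 2 months (SE 0.0815, adjusted p = 0.842). It rose 2.46-fold in WT (adjusted p = 2.58e-06) and 1.67-fold in PPARγ-KO (adjusted p = 3.40e-05). The genotype difference changed by -0.55 between the times (SE 0.115, adjusted p = 0.0251). That call was lost without PPARγ-KO replicate 1 or 2 at 2 months (0.0603 and 0.0574), WT replicate 2 or 3 at 5 months (0.0651 and 0.0823) or PPARγ-KO replicate 2 at 5 months (0.0619), and over the alternatives the adjusted p ran from 3.64e-05 to 0.0823.

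Orm2 was far scarcer than Orm1 and moved further. It had 11.6, 33.3 and 26.8 normalized CPM in WT and 12.3, 19.8 and 11.4 in PPARγ-KO at 2 months, and WT replicate 1 lay among the PPARγ-KO values. At 5 months it had 78.3, 117 and 122 in WT and 30.7, 29.0 and 36.2 in PPARγ-KO, with no overlap. Orm2 showed the largest fall of the 10 genes at 5 months, 3.30-fold (log2 -1.72, SE 0.199, adjusted p = 0.00281), and was called under 13 of 13 alternatives. At 2 months the difference was -0.73 with an SE of 0.461 (adjusted p = 0.481). Orm2 rose 4.42-fold in WT (log2 2.14, SE 0.449, adjusted p = 0.0183) and 2.22-fold in PPARγ-KO (adjusted p = 0.00799). The WT rise was not called without WT replicate 3 at 2 months (0.0549) or without WT replicate 2 (0.0630) or 3 (0.0586) at 5 months, within a range of 2.41e-05 to 0.0630.

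Orm3 had the lowest level of the 3 Orm genes. It had 9.98, 18.7 and 13.3 normalized CPM in WT and 5.12, 10.4 and 3.24 in PPARγ-KO at 2 months. At 5 months it had 38.3, 28.1 and 27.4 in WT and 9.20, 11.5 and 13.9 in PPARγ-KO. The genotypes overlapped by 1 library on each side at 2 months and were apart at 5 months. The 5-month fall was 2.71-fold (log2 -1.44, SE 0.176, adjusted p = 8.28e-04). The 2-month difference of -1.19 had an SE of 0.482 and was not called (adjusted p = 0.272), but was called with the replicate number as a block (0.0328), within a range of 0.0328 to 0.551. Orm3 rose 2.23-fold in WT (adjusted p = 0.00687), while in PPARγ-KO the log2 difference was 0.91 (SE 0.460, adjusted p = 0.173, and 0.00125 without PPARγ-KO replicate 2 at 2 months).

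With the 3 Orm genes summed, the 5-month difference was -0.60 on the log2 scale (SE 0.0830, adjusted p = 3.00e-04), the 2-month difference -0.02 (SE 0.0914, adjusted p = 0.937) and the change between the times -0.59 (SE 0.125, adjusted p = 0.0265). Orm1 supplied most of that sum. The ratio of Orm1 to Orm2 counts was 12.3, 8.22 and 8.16 in WT and 22.5, 21.1 and 20.7 in PPARγ-KO at 5 months, with no overlap. At 2 months it was 32.1, 12.2 and 15.3 in WT and 33.2, 21.8 and 33.7 in PPARγ-KO, where WT replicate 1 stood with the PPARγ-KO libraries.

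Lcn2, on chromosome 2 at chr2:32384633-32388252, codes for lipocalin 2, which is made by stimulated hepatocytes and is also a granule protein of neutrophils. WT livers had 28.1, 48.4 and 36.2 normalized CPM at 2 months and 187, 308 and 319.9 at 5 months. PPARγ-KO livers had 20.0, 23.9 and 16.0 at 2 months and 111, 89.8 and 115 at 5 months. The PPARγ-KO libraries lay below WT at both times. At 5 months Lcn2 was 2.57-fold lower (log2 -1.36, SE 0.250, adjusted p = 0.0229), a call lost without any 1 of the 5-month libraries other than WT replicate 1 (0.0637 to 0.0835) and without the filter on low counts (0.0613), within a range of 9.95e-07 to 0.0835. At 2 months the difference was -0.92 (SE 0.230, adjusted p = 0.0898). It was called under 4 of 13 alternatives, within a range of 2.94e-06 to 0.238. These were DESeq2 (2.70e-04), no filter on low counts (2.94e-06), the replicate number as a block (0.00799) and leaving out WT replicate 1 (0.0220). Lcn2 rose 7.23-fold over time in WT (adjusted p = 0.00105) and 5.28-fold in PPARγ-KO (adjusted p = 5.42e-05), and the genotype difference changed by -0.45 between the times (SE 0.373, adjusted p = 0.643).

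Of the neutrophil markers, Ly6g had 0 to 1 counts per library, Mpo 0 to 2 and Elane 0 to 7, and at 2 months the 15 markers summed to 8.35 to 11.4 normalized CPM in WT and 5.54 to 7.18 in PPARγ-KO. At 5 months the sum was 9.77 to 18.1 in WT and 5.87 to 8.40 in PPARγ-KO, and of the 4 markers that passed the filter S100a9 (log2 -1.25, SE 0.328, adjusted p = 0.0180) and Csf3r (-1.16, SE 0.226, adjusted p = 0.00333) were lower. Of all genes tested at 5 months, 9.51% were called lower. The S100a9 call was lost without WT replicate 3 (0.0962), PPARγ-KO replicate 2 (0.0535) or PPARγ-KO replicate 3 (0.0657). S100a8 had 16 to 50 counts in WT and 21 to 40 in PPARγ-KO at 5 months, which overlapped (adjusted p = 0.390, and 0.0492 without WT replicate 1). The part of neutrophils in the Lcn2 differences was not tested.

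Hp, on chromosome 8, codes for haptoglobin and was the most abundant of the 10 genes. WT livers had 2439, 2677 and 2548 normalized CPM at 2 months and 5891, 6945 and 6850.0 at 5 months. PPARγ-KO livers had 1775, 2068 and 1940.0 at 2 months and 4374, 4137 and 4150.1 at 5 months. PPARγ-KO lay below WT at both times with no overlap. The 5-month fall was 1.54-fold (log2 -0.63, SE 0.0898, adjusted p = 3.88e-04) and was called under 13 of 13 alternatives. The 2-month fall was 1.33-fold (log2 -0.41, SE 0.0946, adjusted p = 0.0469), and was not called with the replicate number as a block (0.0688) or without any 1 of the 2-month libraries other than WT replicate 1 (0.0837 to 0.218), within a range of 1.44e-04 to 0.218. Hp rose 2.57-fold in WT (adjusted p = 7.79e-06) and 2.19-fold in PPARγ-KO (adjusted p = 1.32e-06), and the genotype difference changed by -0.23 (SE 0.126, adjusted p = 0.418).

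The scavenger receptor Cd163, by which macrophages take up haptoglobin bound to hemoglobin, was higher in PPARγ-KO at 2 months (log2 0.96, SE 0.125, adjusted p = 0.00549) and lower at 5 months (log2 -0.70, SE 0.214, adjusted p = 0.0446). The 5-month call held when WT replicate 2 was left out and was lost without any other library (0.0521 to 0.133). It was also lost with the replicate number as a block (0.0929). The change between the times was -1.67 (SE 0.271, adjusted p = 0.00953). Hemopexin (Hpx), which captures free heme, was lower at 5 months (log2 -0.78, SE 0.104, adjusted p = 2.36e-04) and differed by -0.09 at 2 months (SE 0.0999, adjusted p = 0.672). Of 13 tested binding partners and receptors of the acute phase proteins, 5 were lower in PPARγ-KO at 5 months (9.51% of all genes tested). Beside Cd163 these were Fcgr1 (log2 -1.23, adjusted p = 7.36e-05) and Fcgr3 (-0.95, 1.87e-04), receptors that bind pentraxins as well as IgG, and Tlr4 (-0.95, 0.00166) and Fpr2 (-1.76, 0.00420), both known receptors of serum amyloid A. Fn1, which binds serum amyloid P component, was higher (0.27, adjusted p = 0.0258), a call lost without WT replicate 2 (0.123) or 3 (0.0785) or PPARγ-KO replicate 2 (0.0939) or 3 (0.0764).

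Per kilobase of mRNA, with the length taken from a single transcript of each gene, the order of levels changed with time and genotype. In WT at 2 months Hp led with a mean of 1899 normalized CPM per kilobase, followed by Orm1 at 511 and Saa1 at 113, and the libraries of neighbouring genes overlapped from Saa4 (75.1) to Saa2 (64.9) and from Apcs (48.9) down to Orm3 (18.1), above Saa3 at 4.87. In PPARγ-KO at 2 months Saa4 (123) stood above Saa1 (91.2) with no overlap. This change of order depends on the lengths used, 2094 bases for Saa4 and 609 for Saa1. In normalized CPM, Saa4 was above Saa1 in both genotypes at 2 months, at means of 157 against 68.7 in WT and 258 against 55.6 in PPARγ-KO. At 5 months in WT, Saa1 (1618) reached the range of Orm1 (1257), with overlap, below Hp (4879) and above Saa2 (564) and Lcn2 (297). In PPARγ-KO at 5 months Orm1 (882) stood above Saa1 (541) with no overlap. The 10 genes together took 0.322% to 0.379% of all counts in WT and 0.259% to 0.300% in PPARγ-KO at 2 months, and 0.819% to 1.04% and 0.535% to 0.586% at 5 months. Hp alone gave 67.0% to 76.8% of these counts.

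With the group means removed, some of the genes still varied together from library to library. Pearson's r of log2 normalized CPM over the 12 libraries was 0.934 for Saa1 and Saa2, 0.860 for Saa1 and Lcn2, 0.868 for Orm2 and Lcn2 and 0.761 for Lcn2 and Hp. Saa3 had r of 0.121 with Saa1 and -0.0650 with Lcn2, and Saa4 had -0.458 with Saa2 and -0.342 with Lcn2. WT replicate 1 was the lowest of its group at both times for Saa1, Saa2, Orm2, Lcn2 and Hp. The r values were not computed without these libraries, nor over pairs drawn from all genes. They are descriptions over libraries that share scaling, and paralogs may share reads.

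Genes outside the 10 members whose levels ran closest to Saa1, Saa3, Orm2, Lcn2 and Hp were sought among 13160 genes by Pearson's r of log2 normalized CPM over the 12 libraries, in which the differences between the 4 groups carry most of the likeness. Nearest to Orm2 were Hilpda, a lipid droplet protein (r = 0.983, and 0.876 with group means removed), the macrophage gene Cd68 (0.977 and 0.809) and Il1rn (0.973 and 0.799). Nearest to Saa1 were the protease gene Ctsb (0.991 and 0.631) and the ribosomal protein genes Rps20 (0.991 and 0.361) and Rps3 (0.987 and -0.0493), so that the likeness of the ribosomal genes lay mainly between groups. Lcn2 had Spg21 (0.988), Rgs2 (0.984) and the chemokine gene Ccl6 (0.982) as its nearest genes, Hp had Spg21 (0.992), Rps19 (0.990) and Cst3 (0.988), and Saa3 had 4933434E20Rik (0.993), Rps24 (0.992) and Crip1 (0.987).

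Other positive acute phase proteins moved in both directions. At 5 months, of 29 tested, 9 were lower in PPARγ-KO (9.51% of all genes tested), with a list median of -0.161. They included Hpx, Lrg1 (log2 -0.47, adjusted p = 2.36e-04), Steap4 (-0.45, 3.62e-04), the IL-1 receptor antagonist Il1rn (-1.17, 6.26e-04) and mannose-binding lectin Mbl1 (-0.39, 0.00300). Serpina3m, a protease inhibitor gene, was higher (0.81, 7.47e-05). At 2 months 5 of 28 were called higher (1.78% of all genes tested): Serpina3m (0.72, 0.00388), Serpina3n (0.46, 0.0201), Crp, Mbl2 (0.33, 0.0303) and Itih3 (0.47, 0.0445). With the replicate number as a block these 5 were called and Il1rn was called lower (adjusted p = 0.0397), at a mean of 4.90 normalized CPM in PPARγ-KO against 8.15 in WT. Without the block Il1rn was at log2 -0.74 in edgeR's fit of the 2-month libraries (SE 0.196, adjusted p = 0.0704). It was also called in DESeq2 (0.0304), with all 12 libraries in 1 fit (0.0295) and without the filter on low counts (0.00325). Leaving out WT replicate 1 gave a call as well (0.00595), and over the alternatives the adjusted p ran from 0.00325 to 0.250. Without WT replicate 1 at 2 months, 11 genes of this list were called higher and 1 lower. Without any other 2-month library 1 or 2 were called higher, Serpina3m each time. At 5 months 6 to 12 were called lower with 1 library left out.

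Negative acute phase proteins, whose plasma levels fall in inflammation, were mostly not called. Albumin was higher in PPARγ-KO at 5 months (Alb, log2 0.64, SE 0.108, adjusted p = 0.00121) and differed by 0.36 at 2 months (SE 0.119, adjusted p = 0.136). The mouse gene of thyroxine-binding globulin was lower at both times (Serpina7, log2 -1.09, adjusted p = 7.00e-04 at 2 months and -0.80, adjusted p = 4.86e-06 at 5 months). Ahsg was higher at 2 months (0.60, adjusted p = 0.0261, and 0.0683 to 0.117 without any 1 of the 2-month libraries other than WT replicate 1). The median over the 12 genes was 0.0343 at 5 months.

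Of 34 tested genes of IL-6, IL-1 and NF-κB signalling, 3 were higher and 8 lower in PPARγ-KO at 5 months. Of all genes tested, 8.90% were called higher and 9.51% lower, so the share called higher was near that of all genes. The IL-6 receptor gene Il6ra was higher (log2 1.34, SE 0.0864, adjusted p = 1.08e-06) while the shared receptor chain Il6st, or gp130, was lower (-0.31, SE 0.0638, adjusted p = 0.00465). The cytokines Il1b (-1.43, SE 0.233, adjusted p = 9.86e-04) and Il1a (-0.95, SE 0.196, adjusted p = 0.00465) were lower at means of 2.29 against 6.23 and 2.26 against 4.38 normalized CPM. Il6 had 0 to 2 counts in every library, too few to test. The factors Cebpb (0.34, adjusted p = 0.00970) and Cebpd (-0.33, adjusted p = 0.0288) were called in opposite directions. The Cebpb call was lost without WT replicate 2 (0.0628) or 3 (0.0590), and that for Cebpd without WT replicate 1 (0.0646) or 3 (0.103), without PPARγ-KO replicate 1 (0.0548) or 3 (0.114), and in DESeq2 (0.0737). Neither was called when all 12 libraries were fitted together (0.281 and 0.314). Stat3 (0.12, adjusted p = 0.191), Socs3 (-0.08, 0.784) and Nfkbia (-0.20, 0.0575) were not called. Il1rap was higher at both times, by 0.61 at 2 months (adjusted p = 0.0334) and 0.30 at 5 months (adjusted p = 0.00844), the first lost without any 1 of the 2-month libraries other than WT replicate 1 (0.0705 to 0.117) and the second without WT replicate 2 (0.0566) or 3 (0.0562). It was the only gene of this list called at 2 months, against 3.56% of all genes tested. The replicate block gave 3 at that time, all higher, with Cebpb (0.0112) and Il1r1 (0.0470) added.

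**Figure D5:**
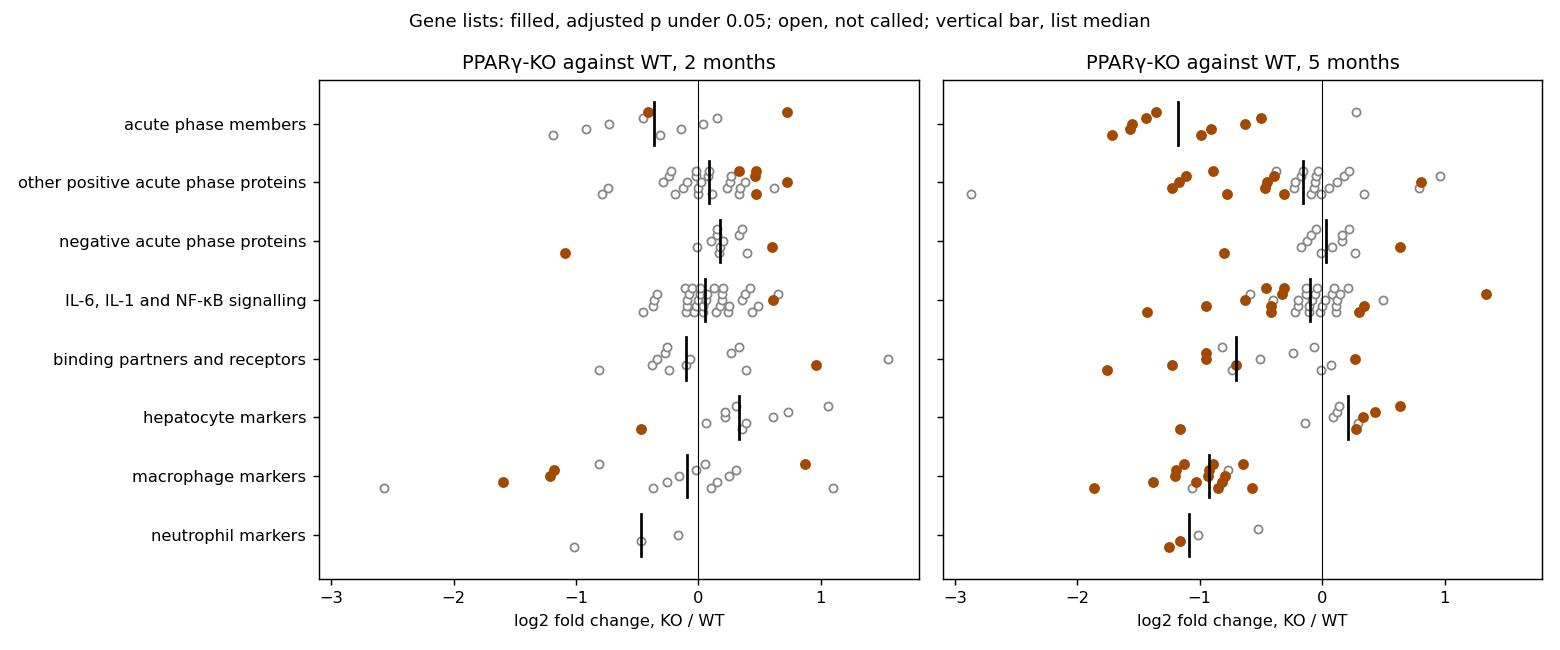
Log2 fold change of PPARγ-KO against WT (x axis) of the tested genes of 8 lists (y axis) at 2 months, left, and 5 months, right. Each point is a gene, filled for an adjusted p under 0.05, and the vertical bar is the list median. At 5 months the medians are -1.17 for the acute phase genes described here, -0.161 for other positive acute phase proteins and -0.922 for macrophage markers.

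Hepatocytes are the main source of these plasma proteins. At 5 months 4 of 10 hepatocyte markers were higher in PPARγ-KO (Alb, Tat, Tdo2 and Hnf4a, of which Alb alone held with each library left out) and Cyp3a11 was lower (log2 -1.16, adjusted p = 0.00203, and 0.0653 without WT replicate 1). Of all genes tested at this time, 8.90% were called higher and 9.51% lower. The summed level of the 10 markers was 60387 to 63263 normalized CPM in WT and 74527 to 86893 in PPARγ-KO. The acute phase sum was 8506 to 10253 against 5634 to 6084. Alb led the marker sum, and Hp gave 67.0% to 73.4% of the acute phase counts at 5 months. The opposite directions of the sums therefore weigh these genes most. Of 10 stellate cell markers 6 were lower at 5 months, with sums of 694 to 870.2 normalized CPM in WT against 536 to 613 in PPARγ-KO. With 1 library left out 3 to 7 of them were called lower, 3 without PPARγ-KO replicate 1 and 7 without WT replicate 1. Their part in the acute phase differences was not tested.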

How the data were processed

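Whole liver RNA of 12 libraries was sequenced by a company on an Illumina NovaSeq instrument after TRIzol extraction. The authors deposited 1 table per library with whole-number read counts per Ensembl gene, not normalized. The study's methods name STAR and the submitters' processing notes name HISAT2, both with mm10. The counter, the annotation version, strand and the treatment of reads that fit several genes are not given in the sources used here. Gene names that a spreadsheet had turned into dates (27) were restored by gene ID.

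Counts of 54532 genes were tested with edgeR 4.0.16 (quasi-likelihood test, robust, TMM scaling, filterByExpr, R 4.3.3), in separate fits of 6 libraries for PPARγ-KO against WT at each time and for 5 against 2 months in each genotype, and in a fit of all 12 for the change of the genotype difference. Libraries held 16367775 to 27452284 counts. Adjustment followed Benjamini-Hochberg across every gene in the fit, and a gene was called at an adjusted p under 0.05. The standard error (SE) was the log2 fold change divided by the square root of F. The members and gene lists were chosen with earlier results of these data known. Named genes were Pparg, the 10 members, at most 6 called genes per list and genotype comparison with the smallest adjusted p, a fixed set of cytokine, signalling, pentraxin and cell type genes, and the 3 genes nearest in pattern to each of Saa1, Saa3, Orm2, Lcn2 and Hp. Adipoq, Lep, Fabp4, Adrb3, Plin2 and Il1r1 were named after their values were seen.

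Groups and replicate numbers came from the labels. Deviations from the group means were compared over the 5000 genes of highest expression. Between WT and PPARγ-KO at 2 months, same-numbered libraries correlated with r = 0.218, 0.323 and 0.140, and other-numbered ones with -0.273 to 0.113. Between the times in WT, same-numbered libraries had 0.239, 0.186 and 0.0198, and other-numbered ones up to 0.266. The labels give no pairs, so the replicate block is an alternative setting and not a known pairing. Alternatives were each library left out, summed paralogs, DESeq2 1.42.0, edgeR with that tool's size factors or without TMM, a minimum of 10 counts per library or no minimum, the replicate number as a block, and 1 fit of all 12 libraries. Scripts were tested on simulated data. Promoters came from RefSeq, and levels per kilobase used mRNA lengths of the reference annotation.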

Additional observations from a re-analysis of the deposited data

Results flagged for a closer look

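In the fit of all 12 libraries, the PPARγ-KO effect differed between the times for Saa3 and Orm1. For Saa3 the log2 difference between genotypes was 1.71 lower at 5 than at 2 months (-1.71, SE 0.255, edgeR adjusted p = 0.00456), and at 5 months the 3 PPARγ-KO libraries (6.30 to 9.06 normalized CPM) were below the 3 WT libraries (22.1 to 22.7). For Orm1 the change was -0.55 (SE 0.115, edgeR adjusted p = 0.0251), with 611 to 749 against 962 to 995 normalized CPM at 5 months, and the call was lost when any 1 of 5 libraries was left out (0.0574 to 0.0823).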

How the results depend on the processing

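PPARγ-KO against WT at 2 months was the comparison most open to processing. Of the 10 genes, 2 were called in edgeR, 4 in DESeq2, 5 without the filter on low counts, 3 with the replicate block, and 0 to 4 with 1 library left out. The 4 came without WT replicate 1 and the 0 without WT replicate 3. In that last fit 4 genes had an unadjusted p under 0.05, and DESeq2 was not run with libraries left out. At 5 months 9 were called, 8 with the replicate block and 5 to 9 with 1 library left out, the 5 without PPARγ-KO replicate 1. The change between the times was called for 2 genes, for 4 in DESeq2, for 4 with the replicate block and for 1 to 4 with 1 library left out, the 4 without WT replicate 1 at 5 months. The replicate block gave the same counts as before over time in WT (10) and in PPARγ-KO (8). Same-numbered libraries did not correlate at 5 months (r of -0.172 to -0.0586), nor throughout over time. The weak correlation at 2 months comes from these same counts and the labels give no pairs. Calls under the block are therefore not those of a known pairing. With paralogs summed, 6 of 7 features were called at 5 months. Directions reversed for Orm1 at 2 months with library size alone (-0.04), with 0.00 to 0.08 over the other left-out libraries and -0.00 without PPARγ-KO replicate 2, and for Orm3 in the change between the times, which spanned -0.59 to 0.33 with 1 library left out. None of these values was called. Over the single genes, 344 results under other settings kept direction and side of the threshold, 15 became called, 5 lost the call and 1 reversed, and with a library left out these were 319, 9, 30 and 2.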
